A study of Homo sapiens with 18 samples.

Results

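The libraries described here are 6 of the 18 RNA sequencing libraries of a study of nidogen 1 (NID1) in colorectal cancer and hepatic stellate cells. They are the 3 libraries labelled LV5-NID1 and the 3 labelled LV5, which stand together in a single deposited gene table and were chosen as the samples of that table. Both groups are SW480, an established human line from a colon adenocarcinoma. The LV5-NID1 cells overexpress NID1 and were kept for 72 hours with GW4869, a small molecule that inhibits neutral sphingomyelinase and is used to lower exosome release. LV5 is their control. The submitters asked how the exosome route bears on epithelial to mesenchymal transition (EMT) in these cells. Not stated in the labels are the vector, whether either line was a clone, and whether the LV5 cells were given GW4869. NID1 overexpression and GW4869 therefore cannot be told apart in any difference given below. Nor do they tell if the replicates of a group came from separate cultures, and the p-values rest on library-to-library spread that may be technical.

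Nidogen 1 is a secreted glycoprotein of basement membranes that links the laminin network to the collagen IV network. Neutral sphingomyelinases cut sphingomyelin in the cytosolic leaflet of membranes to ceramide, a lipid that helps inner vesicles bud into multivesicular endosomes, which can then fuse with the plasma membrane and release exosomes or deliver their content to lysosomes. In EMT, carcinoma cells lose keratins and cadherin-based junctions and gain vimentin, N-cadherin, contractile proteins and matrix proteins, under transcription factors of the SNAI, ZEB and TWIST families.

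Of 32555 genes listed, 15508 reached at least 1 TPM (transcript abundance scaled to a fixed library total) in at least 3 of the 6 libraries and were tested. Log2 fold changes are of LV5-NID1 against LV5 on the scale of log2(TPM + 1), which understates the change of low genes, and genes with an adjusted p under 0.05 (Benjamini-Hochberg over all tested genes, limma) were called. With all 6 libraries 2572 genes were called (16.6%), 1127 of them higher in LV5-NID1 (7.27% of tested genes) and 1445 lower (9.32%). Changes of at least 1 on the log2 scale were fewer and mostly downward, with 22 genes higher (0.142%) and 198 lower (1.28%). The median log2 fold change of all tested genes was 0.01. The shares called higher and lower and this median are the background for the list counts below.

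The third LV5-NID1 library stood apart from the other libraries. Across genes, which are not independent replicates, its log2 values correlated with those of its own group at r of 0.959 and 0.969, against 0.989 for replicates 1 and 2 of LV5-NID1 and 0.986 to 0.987 within LV5. It listed 14998 genes at 1 TPM or more, where the other libraries listed 15321 to 15493. Its departure followed the GC content of the transcripts. Among genes with a mean of at least 5 TPM, the fifth with the highest GC content lay at a median of -0.64 from the LV5 mean in this library, and at -0.16 and -0.04 in replicates 2 and 1 of LV5-NID1. The fifth with the lowest GC content lay at 0.17 in it and at 0.07 and 0.02 in replicates 2 and 1. Genes called lower had a median GC content of 51.0% and genes called higher of 44.7%, against 48.1% over all tested genes. Results are therefore given with this library and, where it matters, without it, when 3325 genes were called (21.4%), 1299 higher (8.38%) and 2026 lower (13.1%).

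**Figure D1:**
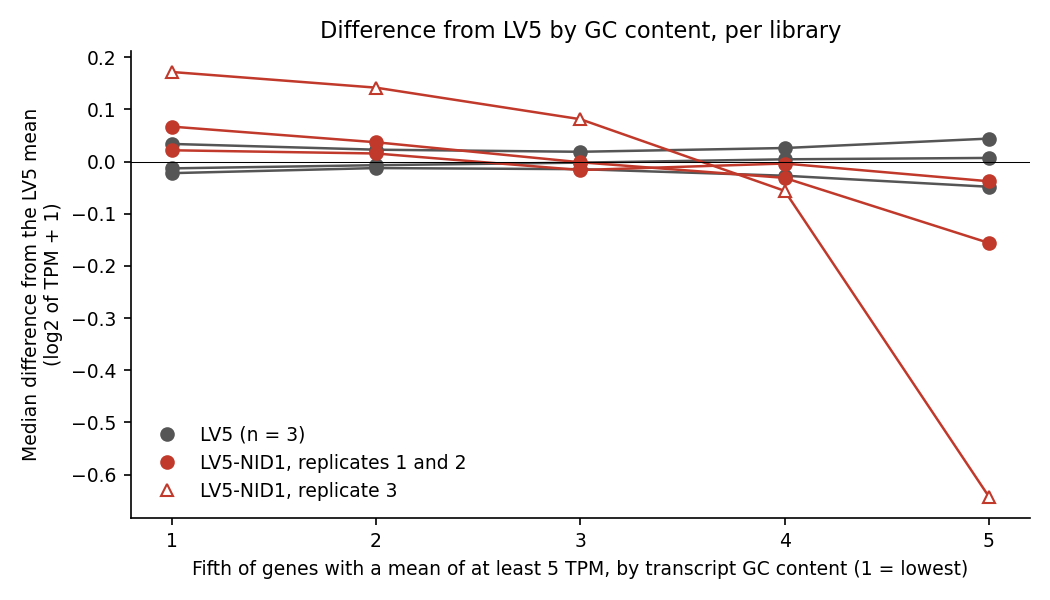
Median difference of each library from the mean of the LV5 libraries (y axis, log2 of TPM + 1) in 5 equal groups of genes by transcript GC content (x axis), with LV5 in grey and LV5-NID1 in red. The open triangles, LV5-NID1 replicate 3, run from 0.17 in the lowest GC group to -0.64 in the highest, while all LV5 libraries stay within 0.05 of 0.

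The markers of colon epithelium were for the most part not expressed in either group. Of 15 such genes in the table only KRT8, KRT18, KRT19 and EPCAM passed the filter. E-cadherin (CDH1) had a mean of 0.62 TPM in LV5 and 0.40 TPM in LV5-NID1. The gut transcription factor CDX2 was at 0.18 and 0 TPM, the microvillar protein villin (VIL1) at 0.19 and 0.05 TPM, and the stem cell receptor LGR5 at 0.06 and 0.11 TPM. These levels go against the labelled colon epithelial identity, which the data did not settle further, and the groups are called by their labels below. Markers of other cell types were low as well: none of 7 hepatocyte markers was tested, PTPRC, the pan-leukocyte marker, was at 0.02 and 0.01 TPM, and 3 of 13 stellate and fibroblast markers passed the filter with none called by limma (1 with an unadjusted p under 0.05). The summed leukocyte markers were 4.98 to 7.17 TPM in LV5 and 2.83 to 3.50 TPM in LV5-NID1. The summed endothelial markers, nearly all of them ESAM, an adhesion molecule, were 60.8 to 65.8 TPM and 33.1 to 45.2 TPM. In bulk RNA, fewer cells of a kind and less RNA per cell cannot be told apart.

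NID1 was near 0 in LV5 and high in LV5-NID1. It stood at 0, 0.04 and 0.02 TPM in LV5 replicates 1, 2 and 3 and at 348, 352 and 379 TPM in the LV5-NID1 replicates (log2 fold change 8.47, SE 0.06, adjusted p = 8.47e-08). The gene spans chromosome 1 from 235975830 to 236065090 in the GENCODE v29 annotation of GRCh38. Its paralog NID2, the other nidogen of basement membranes, fell: it was 8.93, 9.62 and 11.8 TPM in LV5 and 3.23, 2.69 and 3.21 TPM in LV5-NID1, 3.33-fold lower (log2 fold change -1.45, SE 0.12, adjusted p = 0.00211). The ranges of NID2 did not overlap.

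Other basement membrane genes fell with NID2 while NID1 rose. Of 21 tested nidogen, laminin, collagen IV and related genes, NID1 alone was called higher and 11 were called lower, and all 20 members other than NID1 had a log2 fold change below 0. The list's median was -0.64, and -0.56 without LV5-NID1 replicate 3. LAMA1, the laminin alpha chain of early basement membranes, was 24.2, 26.9 and 24.9 TPM in LV5 and 10.3, 10.1 and 12.35 TPM in LV5-NID1 (log2 fold change -1.15, SE 0.09, adjusted p = 0.002). FBLN1, the matrix glycoprotein fibulin 1, which binds nidogen, went from 208 ± 0.58 to 85.1 ± 19.5 TPM (SD, n = 3). LV5-NID1 replicate 3, at 62.6 TPM, was the lowest, and the fall remained without it (log2 fold change -1.10, adjusted p = 0.000154). LAMB3, a laminin beta chain of epithelial anchoring structures, fell from 30.5 ± 1.17 to 17.2 ± 2.56 TPM. The collagen IV chains COL4A1 and COL4A3 fell 1.46-fold and 1.85-fold, from 76.3 ± 0.63 to 52.2 ± 3.68 TPM and from 8.89 ± 0.734 to 4.80 ± 0.0721 TPM. LAMB1, the beta chain of most basement membrane laminins, was 96.2 ± 6.79 and 82.6 ± 2.4 TPM and missed the threshold (adjusted p = 0.0734). The GC-rich members LAMA5 and HSPG2 were low above all in the third library. LAMA5, at a GC content of 66.4%, read 83.0, 67.7 and 10.97 TPM in the LV5-NID1 replicates against 71.2 to 92.7 TPM in LV5 and was not called (adjusted p = 0.356). HSPG2, the heparan sulfate proteoglycan perlecan, read 28.6, 26.2 and 9.41 TPM against 38.4 to 46.7 TPM, was not called with all libraries (adjusted p = 0.121), and was called lower without LV5-NID1 replicate 3 (log2 fold change -0.58, adjusted p = 0.0135).

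Integrins, the cell's receptors for this matrix, moved less. Of 24 tested integrin and focal adhesion genes 1 was called higher, the adaptor LIMS1, and 5 lower, with a median of -0.30. Without LV5-NID1 replicate 3, 8 were called lower, against 13.1% of all tested genes, with a median of -0.21. With GC and length trends removed 9 were called lower, against 12.8%. ITGB5, a beta chain of vitronectin receptors, fell from 111 ± 7.46 to 73.2 ± 3.15 TPM (log2 fold change -0.59, adjusted p = 0.00515). Its ligand VTN, vitronectin, fell from 9.78 ± 0.568 to 2.34 ± 0.225 TPM, 4.17-fold. Among matrix proteases and their inhibitors, 2 of 18 were called higher and 10 lower. Both that rose were inhibitors: CSTA, cystatin A, which blocks cysteine proteases, went from 1.88, 1.78 and 1.73 TPM to 5.82, 7.19 and 8.44 TPM (3.98-fold, log2 fold change 1.53, SE 0.13, adjusted p = 0.00224), and SERPINE2, which blocks thrombin and plasminogen activators, from 33.6 ± 1.86 to 60.6 ± 1.91 TPM (adjusted p = 0.00142).

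**Figure D2:**
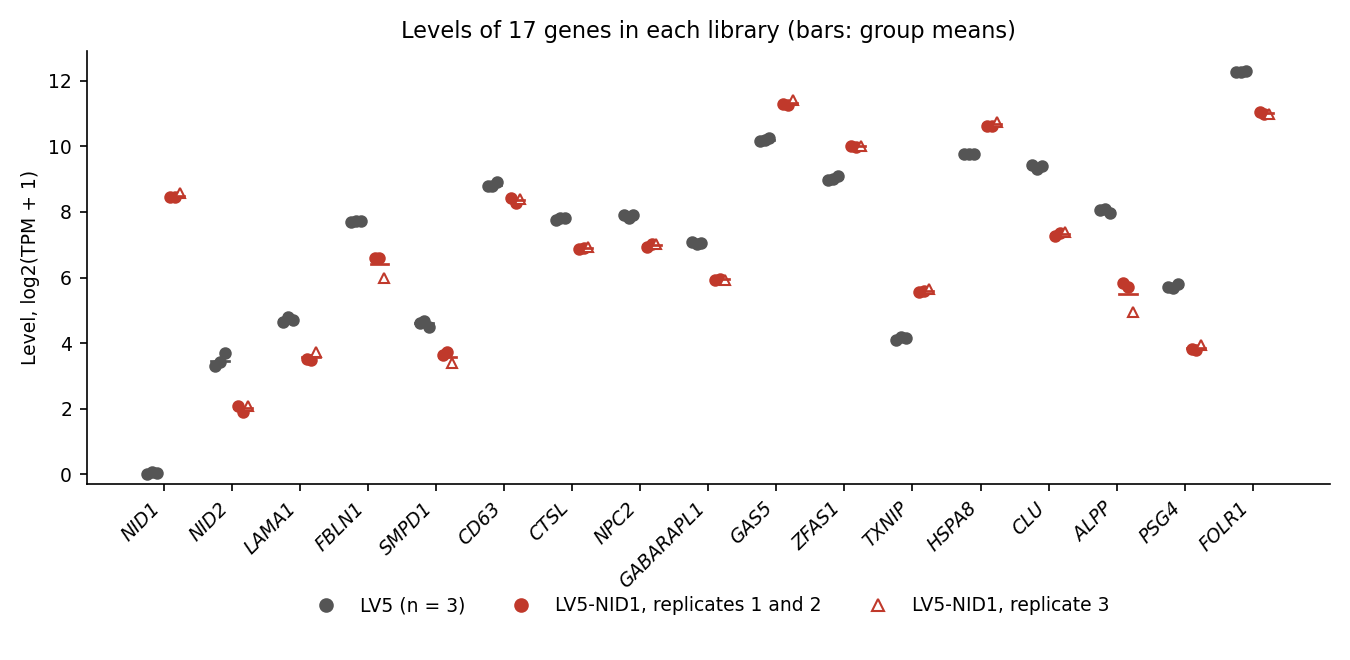
Level of 17 genes in each library (y axis, log2 of TPM + 1), LV5 in grey and LV5-NID1 in red, with a bar at each group mean and open triangles for LV5-NID1 replicate 3. NID1 goes from near 0 to above 8, GAS5, ZFAS1, TXNIP and HSPA8 are higher in all LV5-NID1 libraries, and the other 12 genes are lower in all of them.

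The RNA of the enzymes that GW4869 acts on did not pass the test. SMPD2, SMPD3 and SMPD4, which encode neutral sphingomyelinases, were not called: SMPD2 was 5.71 ± 0.11 TPM in LV5 and 4.62 ± 0.21 TPM in LV5-NID1 (adjusted p = 0.0609), SMPD3 2.03 ± 0.377 and 1.01 ± 0.699 TPM (adjusted p = 0.173), and SMPD4 29.8 ± 2.07 and 24.6 ± 5.55 TPM (adjusted p = 0.278). The SMPD2 libraries did not overlap, yet with GC and length trends removed the adjusted p was 0.991. The acid sphingomyelinase SMPD1, which works in lysosomes, fell instead. It was 23.7, 24.6 and 21.5 TPM in LV5 and 11.5, 12.1 and 9.46 TPM in LV5-NID1 (2.11-fold, log2 fold change -1.02, SE 0.11, adjusted p = 0.00394), and -0.92 without LV5-NID1 replicate 3. Of 30 tested genes of sphingomyelin, ceramide and sphingosine 1-phosphate metabolism, 2 were called higher and 4 lower, against 7.27% and 9.32% of all tested genes. With counts this small, the list as a whole was not set apart from all tested genes. ORMDL1, an inhibitor of sphingolipid synthesis, rose from 48.1 ± 1.09 to 63.4 ± 1.83 TPM. CERK, the ceramide kinase, rose from 9.92 ± 0.359 to 13.4 ± 1.47 TPM, a call that ended when any library other than LV5-NID1 replicate 3 was left out (adjusted p up to 0.124). Besides SMPD1, the lysosomal ceramidase ASAH1 and the sphingosine 1-phosphate phosphatase SGPP1 fell by 0.29 and 0.41 on the log2 scale. The call of ASAH1 ended without LV5 replicate 1, LV5 replicate 2 or LV5-NID1 replicate 2 (adjusted p = 0.0504, 0.063 and 0.0624) and with quantile normalization (0.0555). The call of SGPP1 ended without LV5 replicate 1, 2 or 3 or LV5-NID1 replicate 2 (adjusted p = 0.0614, 0.0723, 0.0524 and 0.072) and with quantile normalization (0.0523).

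Most genes of vesicle formation and release were not called. Of 43 tested, none was called higher and 5 were called lower, against 7.27% and 9.32% of all tested genes, with a median of -0.02. All LV5-NID1 libraries lay above all LV5 libraries in 4 of the 43 and below them in 15, against 21.7% and 21.6% of all tested genes. The 5 were the tetraspanins CD82, CD63 and CD9, the proteoglycan SDC4 and the annexin ANXA2. CD82 went from 24.5 ± 1.23 to 13.02 ± 1.86 TPM (adjusted p = 0.00624). CD63, the tetraspanin most used as an exosome marker, was 440, 440 and 479 TPM in LV5 and 340, 309 and 333 TPM in LV5-NID1, 1.38-fold lower (adjusted p = 0.00688). The calls of CD9 and ANXA2 ended when any library other than LV5-NID1 replicate 3 was left out (adjusted p up to 0.118 and 0.116). TSG101, a subunit of the ESCRT machinery, was 87.5 ± 4.08 and 93.2 ± 3.34 TPM (adjusted p = 0.296), and RAB27A, a small GTPase that docks multivesicular endosomes, 11.96 ± 0.698 and 11.14 ± 0.978 TPM (adjusted p = 0.463). Without LV5-NID1 replicate 3, 10 of the 43 were called lower, against 13.1% of all tested genes.

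Lysosomal genes fell together. Of 37 tested lysosomal enzyme and membrane protein genes, 18 were called lower and none higher, against 9.32% of all tested genes called lower, and 35 of the 37 had a log2 fold change below 0. The median was -0.40. Without LV5-NID1 replicate 3, 25 were called lower with a median of -0.30, and with GC and length trends removed 22 were. CTSL, the cysteine protease cathepsin L, was 214, 224 and 226 TPM in LV5 and 115, 119 and 122 TPM in LV5-NID1 (log2 fold change -0.90, SE 0.05, adjusted p = 0.00065). NPC2, which carries cholesterol out of lysosomes, was 238, 227 and 237 TPM in LV5 and 121, 128 and 128 TPM in LV5-NID1 (log2 fold change -0.89, SE 0.05, adjusted p = 0.00065). PSAP, the precursor of the saposins that help degrade sphingolipids, fell from 674 ± 18.4 to 435 ± 11.2 TPM and CTSA from 121 ± 3.19 to 76.4 ± 1.7 TPM. CTSD, the aspartic protease cathepsin D, fell 2.38-fold, a call that ended without LV5 replicate 1 or 2 (adjusted p = 0.0539 and 0.0558). None of these genes had overlapping groups. Autophagy genes had few calls with all libraries: of 39 tested, 3 were called lower (GABARAPL1, OPTN and MAP1LC3B2) and none higher. Yet 27 of the 39 had a log2 fold change below 0. All LV5-NID1 libraries lay below all LV5 libraries in 16 and above them in 4, against 21.6% and 21.7% of all tested genes. Without LV5-NID1 replicate 3, 10 were called lower and 1 higher, against 13.1% and 8.38%. With GC and length trends removed 11 were called lower and 1 higher, against 12.8% and 10.5%. The calls of OPTN and MAP1LC3B2 ended without LV5 replicate 1 (adjusted p = 0.106 and 0.122), LV5 replicate 2 (0.0831 and 0.124), LV5-NID1 replicate 1 (0.0717 and 0.0886) or LV5-NID1 replicate 2 (0.101 and 0.111), and that of OPTN also without LV5 replicate 3 (0.087). GABARAPL1, which coats autophagosome membranes, was 134, 128 and 133 TPM in LV5 and 60.3, 61.5 and 59.9 TPM in LV5-NID1, 2.17-fold lower (log2 fold change -1.11, SE 0.04, adjusted p = 0.000267).

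For EMT, the question the submitters named, keratins and mesenchymal effectors did not move in opposite directions, and both lists had more calls lower than higher. Calls among junction genes and EMT transcription factors went both ways. Over all tested genes 7.27% were called higher and 9.32% lower. Keratins and other epithelial products fell: of 16 tested genes of this list 8 were called lower and none higher, with a median of -0.52. KRT19 and KRT23 passed the filter on low values through LV5 alone, and of the other 14 genes 6 were called lower, with a median of -0.33. KRT8 and KRT18, the keratin pair of simple epithelia, fell from 780 ± 17.2 to 411 ± 32.3 TPM (log2 fold change -0.93, SE 0.06, adjusted p = 0.00126) and from 861 ± 15.8 to 546 ± 35.2 TPM (log2 fold change -0.66, SE 0.06, adjusted p = 0.00229). KRT19 went from 2.44, 2.60 and 3.72 TPM to 0.07, 0.14 and 0.10 TPM. The mucin MUC13 fell from 239 ± 2.55 to 140 ± 10.9 TPM, and ELF3, an epithelial transcription factor, from 77.2 ± 5.54 to 42.1 ± 1.91 TPM. MUC1, a transmembrane mucin with a GC content of 71.2%, fell from 131 ± 1.47 to 54.6 ± 7.14 TPM, a call that ended with GC and length trends removed (adjusted p = 0.174). With all libraries junction genes did not follow: 2 of 20 were called higher (EPCAM and CXADR), 1 lower (F11R), with a median of -0.02. EPCAM, an epithelial adhesion protein, was 4.24, 5.13 and 5.73 TPM in LV5 and 9.57, 8.39 and 9.20 TPM in LV5-NID1 (log2 fold change 0.74, SE 0.11, adjusted p = 0.0118, and 0.0528 without LV5 replicate 2). The calls of CXADR and F11R ended without LV5 replicate 1 (adjusted p = 0.118 and 0.0775), 2 (0.101 and 0.0671) or 3 (0.0834 and 0.0614) or LV5-NID1 replicate 2 (0.121 and 0.0763), and that of F11R also without LV5-NID1 replicate 1 (0.0517). TJP1, a scaffold of tight junctions, was 16.8 ± 0.52 and 19.6 ± 1.64 TPM (adjusted p = 0.109). Without LV5-NID1 replicate 3, 6 junction genes were called lower and 2 higher, against 13.1% and 8.38% of all tested genes. With GC and length trends removed 5 were called lower and 2 higher, against 12.8% and 10.5%. The count of junction genes called lower thus depended on that library and on GC content.

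Mesenchymal effectors fell more often than they rose. Of 21 tested, 11 were called lower and 2 higher, with a median of -0.48, and 13 and 2 without LV5-NID1 replicate 3. MYL9, a light chain of smooth muscle myosin, was 131, 139 and 139 TPM in LV5 and 56.0, 55.0 and 46.1 TPM in LV5-NID1 (2.60-fold lower, log2 fold change -1.37, SE 0.09, adjusted p = 0.000976). S100A4, a calcium-binding protein linked to motility, fell from 1240 ± 71.6 to 621 ± 30.4 TPM, TPM1, an actin-stabilising tropomyosin, from 233 ± 5.06 to 151 ± 8.61 TPM, and LOXL2, a collagen crosslinking oxidase, from 31.7 ± 2.86 to 14.5 ± 2.13 TPM. Actin itself was among the largest losses in TPM: ACTB went from 2855 ± 229 to 1930 ± 85.1 TPM. The 2 that rose were the hyaluronan receptor CD44, from 127 ± 3.03 to 157 ± 2.35 TPM, and the oxidase LOX, from 7.99 ± 0.168 to 11.9 ± 0.977 TPM. Their calls ended without LV5 replicate 1 (adjusted p = 0.0513 and 0.0568), and also without LV5-NID1 replicate 2 for CD44 (0.0554) and LV5 replicate 2 for LOX (0.0532). Vimentin (VIM), the defining intermediate filament of mesenchymal cells, was high in both groups, at 576, 600 and 594 TPM in LV5 and 637, 648 and 651 TPM in LV5-NID1, a difference that missed the threshold (1.09-fold, adjusted p = 0.0746). N-cadherin (CDH2) was 12.003 ± 0.72 and 12.997 ± 1.08 TPM (adjusted p = 0.412).

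Of 11 tested EMT transcription factors 1 was called higher and 2 lower. SOX4 rose from 9.68, 9.71 and 9.86 TPM to 14.03, 15.3 and 15.3 TPM (log2 fold change 0.56, SE 0.06, adjusted p = 0.00518). FOXC1 fell from 25.0 ± 0.304 to 17.6 ± 1.09 TPM (adjusted p = 0.00752). SNAI2, the repressor Slug, fell from 6.98 ± 0.346 to 4.20 ± 0.484 TPM (adjusted p = 0.0121), a call that ended without LV5 replicate 1, LV5 replicate 2 or LV5-NID1 replicate 2 (adjusted p = 0.0539, 0.0528 and 0.055). SNAI1 was 2.77 ± 0.191 and 1.74 ± 0.418 TPM (adjusted p = 0.066) and ZEB1 8.61 ± 0.528 and 10.2 ± 1.04 TPM (adjusted p = 0.163). The median of the list, -0.22 with all libraries, was 0.12 without LV5-NID1 replicate 3 and 0.01 with GC and length trends removed, so its sign rested on that library.

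**Figure D3:**
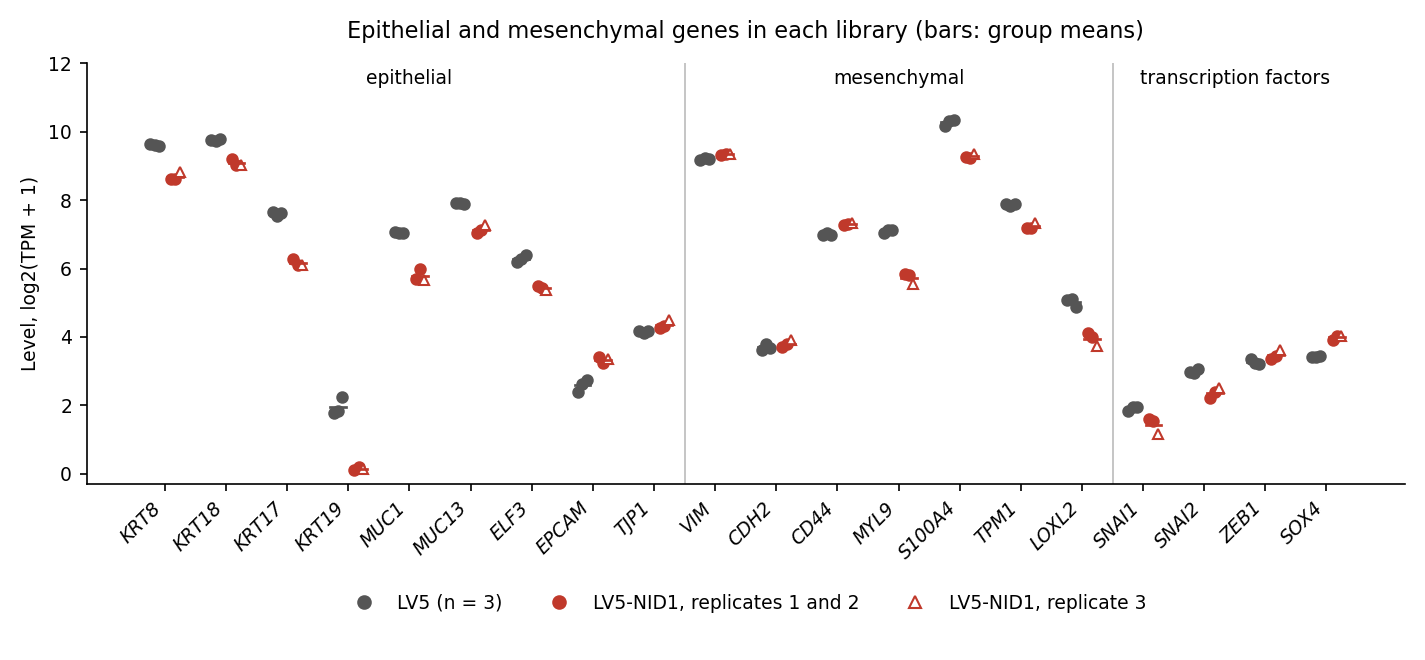
Level of epithelial, mesenchymal and EMT transcription factor genes in each library (y axis, log2 of TPM + 1), LV5 in grey and LV5-NID1 in red, with a bar at each group mean and open triangles for LV5-NID1 replicate 3. Keratins and contractile genes such as MYL9 are lower in every LV5-NID1 library, while VIM and CDH2 differ little.

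The rises were led by the translation apparatus. Ribosomal protein genes made up 18.7% ± 0.397 of all TPM in LV5 and 23.4% ± 0.316 in LV5-NID1 (SD, n = 3 each, exact permutation test, two-sided p = 0.1, the smallest that 3 against 3 libraries allow). Of 81 tested cytosolic ribosomal protein genes 49 were called higher, against 7.27% of all tested genes, and 1 lower, with a median of 0.30. Those called higher lay between 1.17-fold and 1.50-fold. In 58 of the 81 all LV5-NID1 libraries were above all LV5 libraries, a pattern found in 21.7% of all tested genes. Without LV5-NID1 replicate 3, 67 were called higher with a median of 0.28. After quantile normalization, which forces all libraries to one distribution and so compresses the most abundant genes, 23 were called higher with a median of 0.11. In that setting 1273 of all 15508 tested genes were called higher, with a median of 0.06.

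Many of these RNAs begin with a C and a run of pyrimidines, the oligopyrimidine start that places their translation under control of the mTOR pathway. RefSeq promoter entries (GRCh38.p14) were matched by symbol to 65 of the 81 genes. Of the 65, 46 (70.8%) had a C followed by 4 bases of C or T as the first 5 bases at the annotated start, on the gene's own strand. The share was 7.35% of matched tested genes and 5.14% of all 27305 entries. The start did not separate the members that rose: it was present in 72.5% of the matched members called higher and in 68% of the others. Outside the ribosomal proteins, 676 matched tested genes had such a start, of which 58 were called higher (8.58%) and 54 lower (7.99%), with a median of -0.01. Of the 9076 matched other genes without it, 6.68% were called higher and 10.5% lower, with a median of -0.01. Only 9817 of 15494 tested symbols matched an entry, so these shares cover the matched genes and do not speak for all tested genes. Each sequence gives 20 bases before and 20 bases from the annotated start, for genes among the largest rises. The first 5 bases are in capitals where they have this form. After these genes come 2 whose annotated start used here lacks it, the snoRNA host GAS5 and RPS27L, the ribosomal protein gene that fell. Whether their RNA began at that start in these cells was not tested, so the genes themselves may still have such a start.
RPS18, chr6:33272055-33272094, plus strand: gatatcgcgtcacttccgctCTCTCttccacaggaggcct
RPL39, chrX:119791611-119791650, minus strand: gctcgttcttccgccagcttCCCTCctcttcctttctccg
RPS12, chr6:132814549-132814588, plus strand: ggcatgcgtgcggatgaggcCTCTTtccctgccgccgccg
ZFAS1, chr20:49278622-49278661, plus strand: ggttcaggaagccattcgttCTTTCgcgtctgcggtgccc
SNHG5, chr6:85678714-85678753, minus strand: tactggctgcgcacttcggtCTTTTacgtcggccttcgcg
GAS5, chr1:173869026-173869065, minus strand: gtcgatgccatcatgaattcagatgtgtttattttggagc
RPS27L, chr15:63157458-63157497, minus strand: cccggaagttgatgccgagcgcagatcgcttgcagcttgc

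RPS18, of the small subunit, had the largest gain in TPM of the called genes considered for naming. It was 5115, 5410 and 5698 TPM in LV5 and 7593, 7939 and 8464 TPM in LV5-NID1 (1.48-fold, log2 fold change 0.56, SE 0.06, adjusted p = 0.00504). RPL39, of the large subunit, was 5112, 5118 and 5111 TPM in LV5 and 7307, 7453 and 8186 TPM in LV5-NID1 (1.50-fold, log2 fold change 0.58, SE 0.06, adjusted p = 0.00301). RPS12 rose from 2496 ± 37.6 to 3543 ± 238 TPM. The groups of these 3 genes were well apart. RPS27L, a paralog of RPS27, fell from 236 ± 5.77 to 168 ± 14.8 TPM (adjusted p = 0.0101, and 0.0518 without LV5 replicate 1). Ribosomal protein genes have many processed pseudogenes, and how reads shared with them were counted is not given, so the split among copies is uncertain. Other members of the apparatus moved the same way or not at all. Of 21 translation factors and related genes, 7 were called higher and none lower, against 7.27% and 9.32% of all tested genes. After quantile normalization 2 of the 21 were called higher, where 1273 of all 15508 tested genes were. With that scaling the list was not set apart from all tested genes. RACK1, a scaffold on the small subunit, rose from 2595 ± 28.3 to 3298 ± 34.6 TPM, a call that ended with quantile normalization (adjusted p = 0.0994). Of 28 ribosome biogenesis genes 9 were called higher and none lower, with a median of 0.17. GNL3, the nucleolar GTPase nucleostemin, rose from 107 ± 2.21 to 143 ± 6 TPM. The 78 tested mitochondrial ribosomal protein genes showed no such shift, with 5 higher, 2 lower and a median of 0.02.

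Some noncoding hosts of small nucleolar RNAs rose as well. Small nucleolar RNAs guide the chemical modification of ribosomal RNA and are cut from the introns of these transcripts. Of 22 tested hosts 7 were called higher and none lower, with a median of 0.24, and 10 without LV5-NID1 replicate 3. GAS5 was 1136, 1160 and 1221 TPM in LV5 and 2499, 2439 and 2739 TPM in LV5-NID1 (2.18-fold, log2 fold change 1.12, SE 0.06, adjusted p = 0.000655). ZFAS1 was 506, 512 and 548 TPM in LV5 and 1028, 1017 and 1035 TPM in LV5-NID1 (1.97-fold, log2 fold change 0.98, SE 0.05, adjusted p = 0.00046). SNHG5 rose from 194 ± 9.64 to 366 ± 25.5 TPM and SNHG29 from 1484 ± 17.6 to 2428 ± 77.4 TPM. SNHG16 rose from 54.9 ± 1.68 to 80.0 ± 1.66 TPM. In all 5 the groups were well apart. The labels do not say whether the libraries keep the strand, so reads from genes that overlap these hosts on the other strand cannot be told apart from theirs.

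**Figure D4:**
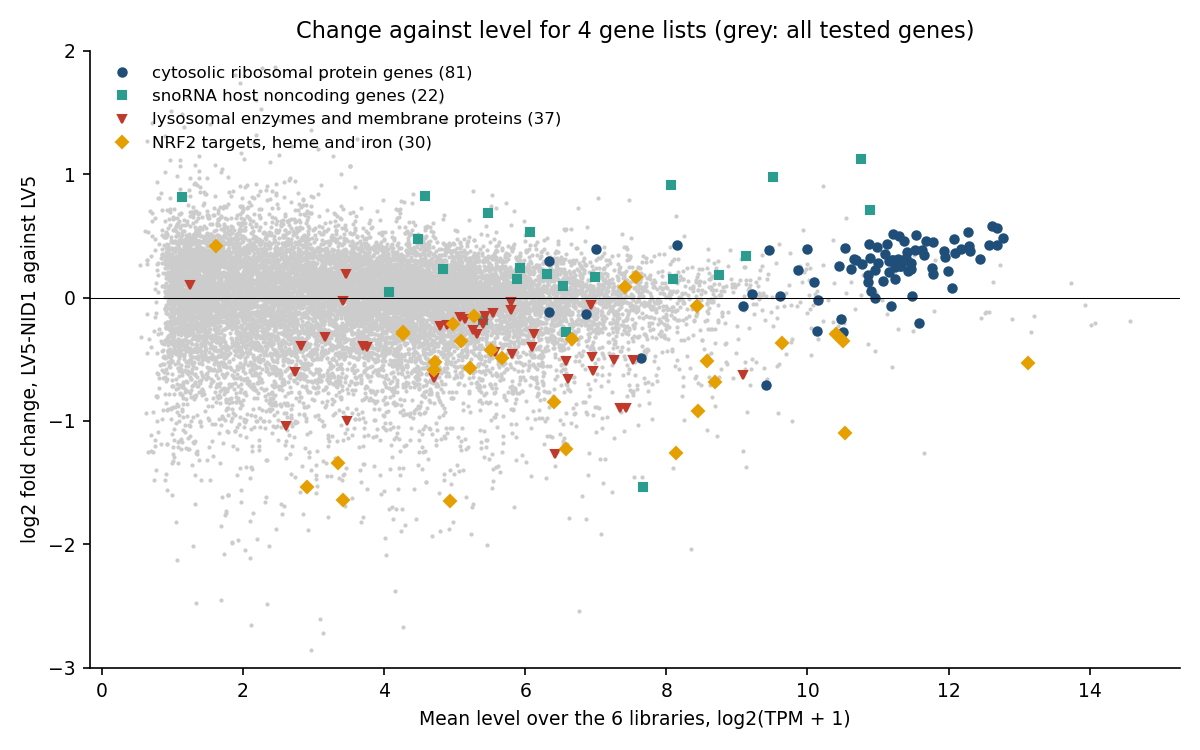
Log2 fold change of LV5-NID1 against LV5 (y axis) by mean level over the 6 libraries (x axis, log2 of TPM + 1) for all tested genes in grey, with 4 gene lists in colour and 11 genes outside the y axis, NID1 among them. Ribosomal protein genes lie at the right around a median of 0.30 and snoRNA hosts around 0.24, while lysosomal and NRF2 target genes lie around -0.40 and -0.50.

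TXNIP, which binds thioredoxin and restrains glucose uptake, had the largest log2 rise after NID1 and CSTA among genes that met the naming rule. It was 16.1, 17.1 and 16.9 TPM in LV5 and 46.0, 46.9 and 49.6 TPM in LV5-NID1 (2.84-fold, log2 fold change 1.45, SE 0.06, adjusted p = 0.000267). The glucose transporter SLC2A1 fell from 55.1 ± 0.958 to 36.9 ± 2.3 TPM. Another, SLC2A3, went from 2.04, 1.87 and 2.50 TPM to 0.23, 0.25 and 0.43 TPM. SLC2A3 passed the filter on low values through LV5 alone, which fixed its direction. PKM, the pyruvate kinase of proliferating cells, fell from 982 ± 13.5 to 766 ± 9.8 TPM (adjusted p = 0.00431). PFKFB4, which makes an activator of glycolysis, rose from 10.1 ± 0.425 to 14.5 ± 0.442 TPM. In all, 5 of 32 tested genes of glucose uptake, glycolysis and the pentose phosphate pathway were called higher and 10 lower, with a median of -0.14. Of the 31 other than SLC2A3, 5 were called higher and 9 lower, with a median of -0.10. Hypoxia-inducible genes were as mixed, with 2 of 23 higher and 5 lower: MXI1, a MYC antagonist, rose from 13.4 ± 0.882 to 23.8 ± 1.62 TPM, and ADM, the vasodilator adrenomedullin, fell from 28.6 ± 0.737 to 12.1 ± 2.91 TPM. ANGPTL4, among the 5, passed the filter through LV5 alone, and of the other 22 genes 4 were called lower.

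Among the remaining large rises were 2 chaperones. HSPA8, the constitutive HSP70 of the cytosol, was 866, 862 and 874 TPM in LV5 and 1573, 1580 and 1729 TPM in LV5-NID1 (1.88-fold, log2 fold change 0.91, SE 0.05, adjusted p = 0.000822). CLGN, calmegin, a chaperone of the endoplasmic reticulum best known in testis, was 6.08, 7.74 and 6.86 TPM in LV5 and 16.8, 18.1 and 19.8 TPM in LV5-NID1 (2.65-fold, adjusted p = 0.00201). Most other chaperones of the endoplasmic reticulum did not rise: 2 of 29 were called higher, CLGN and EDEM1, and 7 lower, with a median of -0.13.

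Genes of the placenta were among the largest falls. Trophoblast, the outer cell layer of the placenta, secretes pregnancy-specific glycoproteins (PSG genes) and the alpha chain of chorionic gonadotropin (CGA) and carries placental alkaline phosphatase (ALPP), and carcinoma lines can express the same genes. Of 16 tested placental genes 13 were called lower and none higher, with a median of -1.14. That count gives no support of its own, since 6 of the 16 (ALPG, PSG1, PSG2, PSG3, PSG6 and PSG9) reached 1 TPM in every LV5 library and in no LV5-NID1 library, so that the filter on low values fixed their direction. Of the other 10 genes 7 were called lower, with a median of -0.67. ALPP was 266, 270 and 247 TPM in LV5 and 55.6, 51.3 and 29.8 TPM in LV5-NID1 (5.73-fold lower, log2 fold change -2.54, SE 0.23, adjusted p = 0.00248). PSG4 was 51.0, 50.8 and 54.5 TPM in LV5 and 13.01, 12.8 and 14.3 TPM in LV5-NID1 (3.90-fold lower, log2 fold change -1.89, SE 0.07, adjusted p = 0.000267). PSG5 fell from 9.91 ± 0.881 to 0.757 ± 0.391 TPM. PSG1, PSG2, PSG3, PSG6 and PSG9 were lower in abundance, at means of 1.38 to 2.60 TPM in LV5 and 0.1 to 0.537 TPM in LV5-NID1. CGA fell from 90.3 ± 5.39 to 45.5 ± 1.9 TPM. The PSG genes are nearly alike in sequence, as are ALPP and ALPG, so their separate levels are uncertain.

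Complement genes and their regulators fell as well. Complement is a cascade of serum proteins that marks and lyses cells, held off on the cell surface by CD46, CD55 and CD59. Of 14 tested genes 10 were called lower and none higher, with a median of -0.65. C4BPA passed the filter on low values through LV5 alone, and of the other 13 genes 9 were called lower, with a median of -0.68. CLU, the secreted chaperone clusterin, was 684, 628 and 678 TPM in LV5 and 153, 162 and 167 TPM in LV5-NID1 (4.13-fold lower, log2 fold change -2.04, SE 0.06, adjusted p = 0.000169). The initiating proteases C1S and C1R fell from 29.5 ± 0.667 to 8.34 ± 0.749 TPM and from 29.8 ± 0.5 to 10.4 ± 1.19 TPM, and the central component C3 from 70.3 ± 2.05 to 28.7 ± 2.37 TPM. The surface regulators fell less: CD59 was 1.61-fold, CD55 1.41-fold and CD46 1.33-fold lower. The folate receptor FOLR1, among the most abundant RNAs of LV5, lost more TPM than any other called gene considered for naming except the ferritin FTH1. It was 4932, 4906 and 5045 TPM in LV5 and 2129, 2043 and 2046 TPM in LV5-NID1 (2.39-fold lower, log2 fold change -1.26, SE 0.04, adjusted p = 0.000267). Other large falls were OLFML1, from 6.18 ± 0.504 to 0.813 ± 0.195 TPM, MAMDC2, from 9.55 ± 0.41 to 1.88 ± 0.06 TPM, FXYD3, a regulator of the sodium pump, from 6.16 ± 0.2 to 0.843 ± 0.374 TPM, and PSCA, a surface antigen, from 30.7 ± 1.08 to 7.33 ± 1.78 TPM. CLIC3, UPK3B and GDF15 also fell by about 2 on the log2 scale with all libraries, with LV5-NID1 replicate 3 lowest at 0.15, 0.14 and 4.81 TPM, and by 1.43, 1.64 and 1.34 without it. Their calls ended without LV5 replicate 1 (adjusted p = 0.119, 0.0677 and 0.127), 2 (0.112, 0.0705 and 0.127) or 3 (0.104, 0.0503 and 0.114), those of CLIC3 and GDF15 also without LV5-NID1 replicate 2 (0.0644 and 0.0924), and that of CLIC3 without LV5-NID1 replicate 1 (0.052).

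Targets of NRF2, the transcription factor that raises antioxidant and detoxifying enzymes, fell with the genes of heme and iron handling. Of 30 tested genes 21 were called lower and none higher, against 9.32% of all tested genes, with a median of -0.50, and 23 without LV5-NID1 replicate 3. In 24 of the 30 all LV5-NID1 libraries lay below all LV5 libraries, against 21.6% of all tested genes. The aldo-keto reductases AKR1C1, AKR1C2 and AKR1C3 fell 3.53-fold, 3.26-fold and 2.36-fold. AKR1C2, for example, was 52.7, 52.9 and 53.3 TPM in LV5 and 15.3, 17.7 and 15.7 TPM in LV5-NID1 (log2 fold change -1.65, SE 0.07, adjusted p = 0.000267). These genes are close paralogs, so the split among them is uncertain. HMOX1, heme oxygenase 1, fell from 15.2 ± 0.835 to 5.43 ± 0.788 TPM (log2 fold change -1.34, adjusted p = 0.00202), and NQO1, a quinone reductase, from 523 ± 21.4 to 325 ± 10.6 TPM (adjusted p = 0.00151). GSTP1, a glutathione transferase, fell from 2159 ± 98.1 to 1015 ± 167 TPM, and TXNRD1, thioredoxin reductase, from 454 ± 19.2 to 318 ± 18.3 TPM. FTH1, the ferritin heavy chain, had the largest loss in TPM of those called, from 10190, 10820 and 11363 TPM to 7322, 7076 and 8056 TPM (1.44-fold, adjusted p = 0.00752, and 0.0652 with no filter on low genes). NFE2L2, which encodes NRF2 itself, was 113 ± 4.99 and 89.3 ± 6.88 TPM (adjusted p = 0.0282), a call that ended when any library other than LV5-NID1 replicate 3 was left out (adjusted p up to 0.103) and with quantile normalization (0.0674).

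Targets of TGF-beta and of the Hippo pathway fell in part. Of 28 tested ligands, receptors and targets of TGF-beta signalling 11 were called lower and none higher, with a median of -0.36, and 18 without LV5-NID1 replicate 3. BMP2, a ligand of the family, was 25.4, 25.98 and 26.1 TPM in LV5 and 7.93, 7.47 and 8.33 TPM in LV5-NID1 (3.27-fold lower, log2 fold change -1.59, SE 0.06, adjusted p = 0.000267). ID2, a target of BMP signalling, fell from 10.6 ± 0.961 to 4.98 ± 0.27 TPM. Of 27 targets of the coactivator YAP and of Hippo feedback genes 11 were called lower and 1 higher (FJX1). CCN2 and CCN1, matricellular proteins, fell from 40.4 ± 0.609 to 22.6 ± 0.557 TPM and from 86.1 ± 0.862 to 54.4 ± 2.42 TPM, and ANKRD1 from 11.1 ± 0.359 to 3.13 ± 0.931 TPM. CCN2 counts in more than one list. Immediate early genes showed the same direction, with 6 of 15 lower and none higher: EGR1 fell from 3.21 ± 0.0702 to 1.41 ± 0.163 TPM and KLF4 from 84.9 ± 3.61 to 51.6 ± 2.24 TPM. MYC was 149 ± 3.89 and 172 ± 19.3 TPM (adjusted p = 0.154) and was called higher without LV5-NID1 replicate 3 (log2 fold change 0.28, adjusted p = 0.0229). Among ERBB, MET and EGF-family genes and their feedback, 4 of 21 were called higher and 5 lower, with ETV5, a target of ERK signalling, going from 13.7 ± 1.22 to 23.2 ± 2.5 TPM (adjusted p = 0.00965, and 0.0501 without LV5 replicate 1).

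Most of the called genes of innate immunity were lower. Of 30 tested interferon-stimulated genes 9 were called lower and 1 higher (HERC5), with a median of -0.28. IFI6 was 15.5, 17.7 and 15.1 TPM in LV5 and 5.28, 3.48 and 3.34 TPM in LV5-NID1 (3.99-fold lower, log2 fold change -1.78, SE 0.16, adjusted p = 0.00248). OAS1, a sensor of double-stranded RNA, fell from 30.3 ± 0.346 to 17.6 ± 0.931 TPM and IFITM1, which blocks viral entry, from 115 ± 9.71 to 70.0 ± 5.07 TPM. Of 24 NF-kB targets and chemokines 5 were called lower and 1 higher (LCN2), IL6 from 3.75 ± 0.456 to 1.39 ± 0.0929 TPM among the falls (adjusted p = 0.00436). IL1A, also among the 5, passed the filter on low values through LV5 alone, and of the other 23 genes 4 were called lower.

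In the cell cycle lists calls went both ways. Of 40 tested genes of replication and S phase 2 were called higher (PRIM1 and MCM6) and 4 lower (RRM2, ORC6, FEN1 and RFC2). Of 32 mitotic genes 3 were called higher (CCNB2, HMMR and BUB1B) and 2 lower (AURKB and UBE2C). Over all tested genes 7.27% were called higher and 9.32% lower. The log2 fold change was below 0 in 29 of the 40 replication genes and 17 of the 32 mitotic genes. Without LV5-NID1 replicate 3, replication had 2 higher and 10 lower and mitosis 3 and 4, against 8.38% and 13.1% of all tested genes. The calls of ORC6, FEN1, CCNB2, HMMR, AURKB and UBE2C each ended without LV5 replicate 1, LV5 replicate 2 or LV5-NID1 replicate 2, with adjusted p up to 0.144. Of 30 tested cell cycle inhibitors and genes of the DNA damage response, 9 were called lower and 1 higher (XPC). CDKN1A, the inhibitor p21, was 73.1, 80.2 and 75.8 TPM in LV5 and 35.3, 31.5 and 32.6 TPM in LV5-NID1 (2.305-fold lower, log2 fold change -1.18, SE 0.07, adjusted p = 0.000768). DDB2, a DNA damage sensor, fell from 109 ± 2.03 to 74.3 ± 4.26 TPM. S100 proteins and annexins, calcium-binding families, fell in 5 of 11 and 7 of 11 tested members with none higher. S100A10 went from 561 ± 15.6 to 305 ± 11.3 TPM.

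The counts of other lists stand beside 7.27% of all tested genes called higher and 9.32% called lower. None of 13 mitochondrially encoded mRNAs was called by limma (2 had an unadjusted p under 0.05, and 1 was called lower without LV5-NID1 replicate 3), and mitochondrial genes together made up 14.2% ± 1.02 of TPM in LV5 and 13.01% ± 0.148 in LV5-NID1 (exact permutation test, two-sided p = 0.1). Of 72 nuclear respiratory chain subunits 8 were called lower, of 39 proteasome genes 5 and of 26 cholesterol genes 4, with none higher. Of 19 fatty acid synthesis genes 4 were lower and 2 higher. Without LV5-NID1 replicate 3, 14 respiratory chain subunits, 7 proteasome genes and 8 cholesterol genes were called lower, against 13.1% of all tested genes. Fatty acid synthesis then had 4 lower and 4 higher. Of 43 genes of the ATF4 response and amino acid supply 5 were higher and 4 lower. Of 23 HOX genes, HOXB9 was called higher and HOXA11 lower, the latter not without LV5 replicate 1 or 2 (adjusted p = 0.0532 and 0.055).

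**Figure D5:**
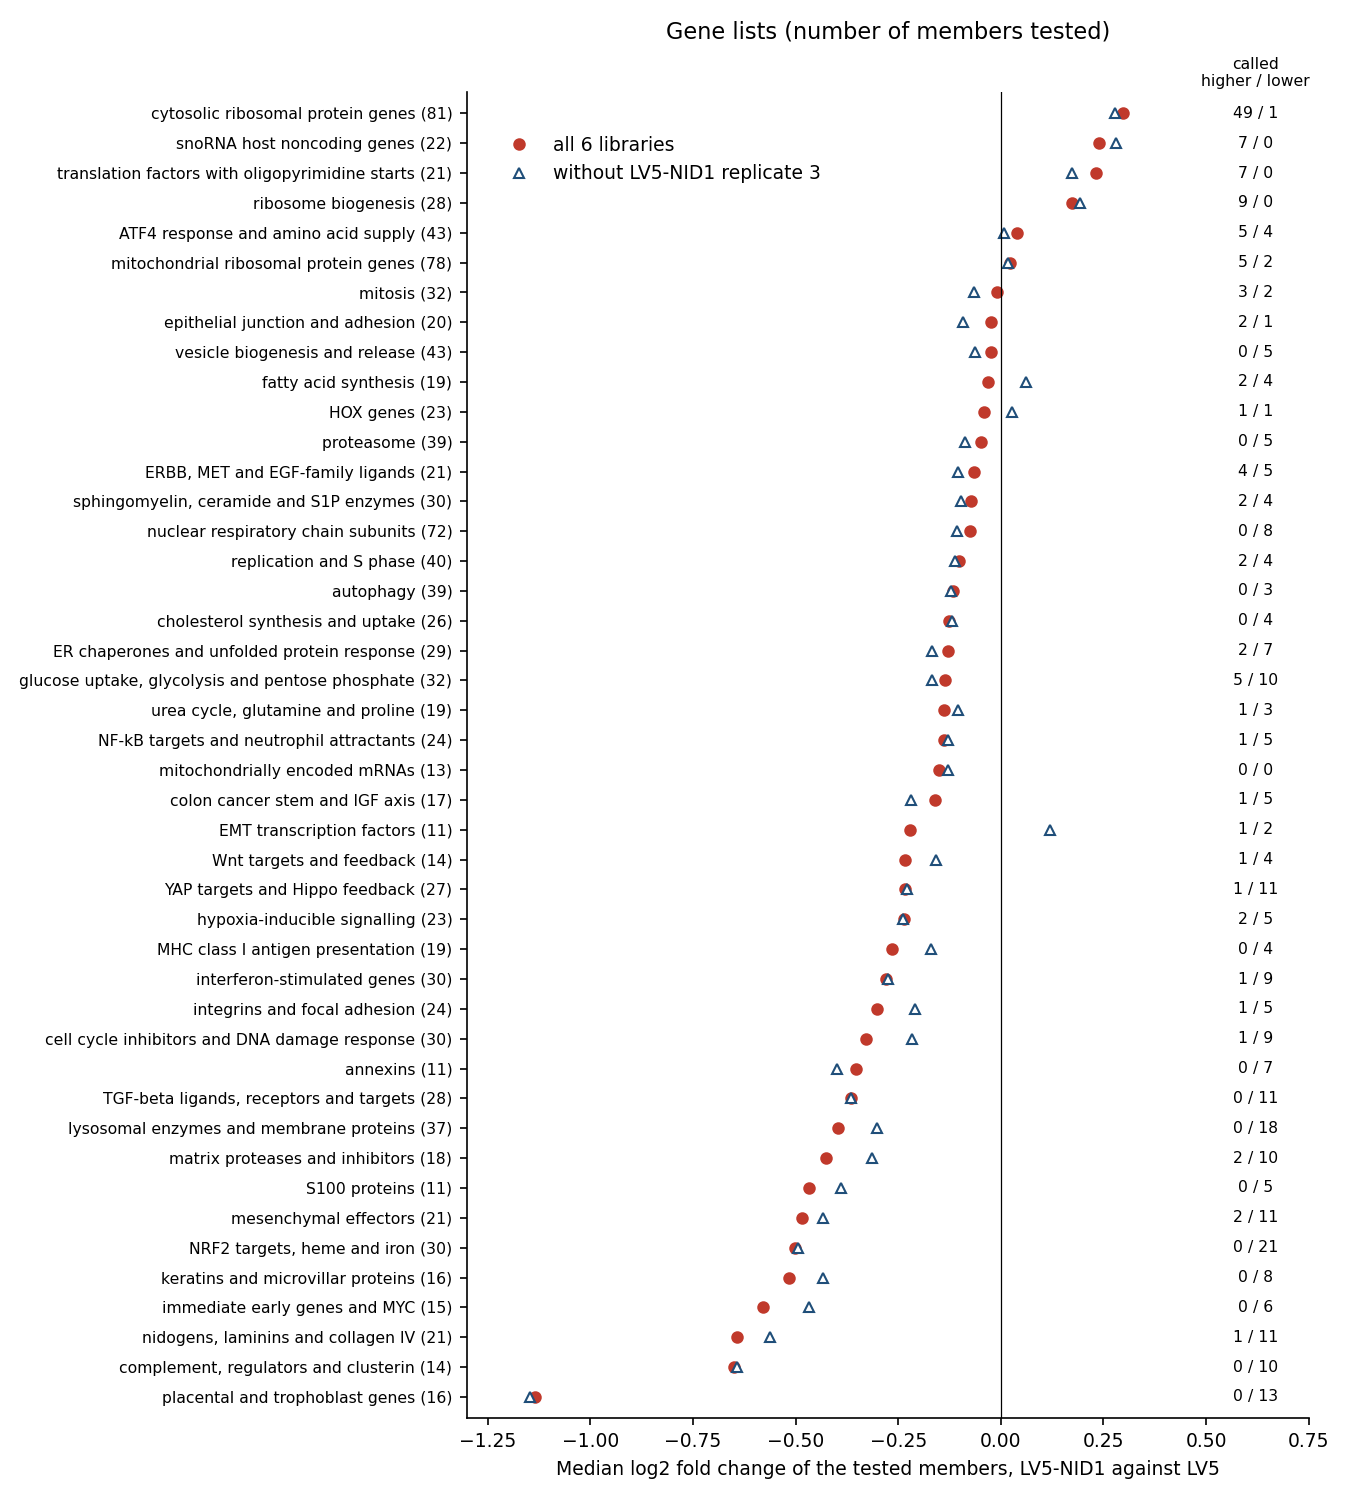
Median log2 fold change of LV5-NID1 against LV5 (x axis) over the tested members of each gene list other than the cell type markers (y axis, number of members tested in brackets), with all 6 libraries as red dots and without LV5-NID1 replicate 3 as open triangles, and the counts of members called higher and lower at the right. Of the lists drawn, ribosomal protein genes and snoRNA hosts lie highest and placental and complement genes lowest, and the medians of EMT transcription factors, fatty acid synthesis and HOX genes change sign without LV5-NID1 replicate 3.

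The other libraries of the study give the same genes in other settings, each from its own table, so values are set side by side without a joint test. Values of SW480-P and SW480-LM3 are a signal normalized by the authors, not TPM. Whether most genes of a table shifted with those named was not tested. In the libraries labelled SW480-LM3 against SW480-P, where NID1 was also higher, 87.8% of 14527 tested genes were called. In LX-2 stellate cells labelled EV-XP-NID1-LX-2 against EV-XP-LX-2 the share was 42.3% of 15802. The LX-2 cells of both groups were given vesicles, so that comparison sets NID1 vesicles against control vesicles. RPS18 and GAS5, higher in LV5-NID1, were lower in SW480-LM3, with log2 fold changes of -1.41 and -2.28, while SNHG5 was not called there (-0.024, adjusted p = 0.605). In LX-2, RPS18 stood at -0.40 and GAS5 at 0.34 (adjusted p = 0.0716). CLU was lower in all 3 comparisons, at -2.04 here, -1.87 in SW480-LM3 and -0.46 in LX-2. HMOX1, lower in LV5-NID1, was higher in LX-2 (log2 fold change 1.63), and in SW480-LM3 it was not called (adjusted p = 0.209). TXNIP and HSPA8 were higher in LX-2 too, with log2 fold changes of 0.52 and 0.83, and HSPA8 was lower in SW480-LM3 (-1.71, limma adjusted p = 6.91e-16).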

How the data were processed

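The authors deposited one gene table of TPM per experiment, with poly(A) RNA selected per the labels' protocols. HISAT2 2.1.0 and Bowtie2 2.3.5 stand in the submitters' processing notes with no role. Which program counted reads, on which build and annotation, is not given in the sources used here. The table of SW480-P and SW480-LM3 holds a signal normalized by the authors, used only for the closing comparison. TPM keep no read depth, so no counting intervals are given. LV5 and LV5-NID1 (n = 3 each, grouped by the labels) were compared with limma 3.58.1 in R 4.3.3, with a variance trend on log2(TPM + 1) and Benjamini-Hochberg adjustment, without a replicate block. The fit was tested on simulated data with the spread of the LV5 libraries. Those data held no departure by GC content like that of LV5-NID1 replicate 3, so the simulation does not show how calls fare under it. Same-numbered libraries did not deviate together (r of -0.016 to 0.056) and were not treated as pairs.

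Named were NID1, the 12 largest log2 rises and falls and 6 largest TPM rises and falls among called genes of at least 5 TPM without overlap, and up to 4 called members and the most abundant member of each of 49 gene lists. Some genes so taken are not reported here, and further list members were named after their values were seen. The comparison, members and lists were chosen with earlier results of these data known. Transcript GC content came from GENCODE v29 for 93.6% of tested genes, and promoter sequences from RefSeq. The 17 alternatives were 2 other scalings, quantile normalization, pseudocounts of 0.1 and 5, other filters on low values, no variance trend, a replicate block, each library left out and, added after seeing the data, removal of GC and length trends with and without LV5-NID1 replicate 3. Members with at least 1 TPM in every library of one group and in none of the other had their direction fixed by the filter. Besides the placental genes and keratins named in the text, these were IL1A, APCDD1, C4BPA, SLC2A3 and ANGPTL4 (LV5 only) and TCF4, DSC2 and NID1 (LV5-NID1 only).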

Additional observations from a re-analysis of the deposited data

How the results depend on the processing

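Of 217 named genes that were called, 125 kept the call under all 17 alternatives and none changed direction. Leaving out LV5 replicate 1, LV5 replicate 2 or LV5-NID1 replicate 2 ended 74, 73 and 67 of these calls. The read depth behind TPM is unknown, so how far depth limits the tests is not known.

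The 2572 calls became 1532 with no filter on low genes and 3973 with GC and length trends removed and without LV5-NID1 replicate 3, a setting added after seeing the data. Leaving out each library gave 713 to 3325 calls, 185 to 1299 higher and 494 to 2026 lower: 713, 714 and 1045 without LV5 replicates 1, 2 and 3, and 1675, 750 and 3325 without LV5-NID1 replicates 1, 2 and 3. Calls higher, 1127 in all, were 521 with no low filter, and calls lower, 1445 in all, 2321 with GC and length trends removed and without LV5-NID1 replicate 3. Quantile normalization moved the share of calls that were higher from 43.8% to 54.7%. Changes of at least 1 on the log2 scale, 22 higher and 198 lower, were 8 and 119 with a mean of at least 5 TPM, 3 and 79 with a pseudocount of 5, and 62 higher with a pseudocount of 0.1. The cause of these shifts was not tested. Same-numbered libraries did not deviate together, and the replicate block left 890 calls, 233 higher and 657 lower.

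Reversals were all among genes that were not called. With GC and length trends removed the log2 fold change was -0.027 for CANX, -0.050 for CDK1, 0.025 for GAPDH, 0.10 for S100A6 and 0.0069 for TCF3. With that and without LV5-NID1 replicate 3 it was -0.052 for CANX, -0.078 for CDK1, -0.0034 for PSMC3, 0.18 for TCF3 and -0.058 for UQCRH. Quantile normalization gave -0.027 for EEF1A1, 0.034 for EGFR, 0.017 for PCNA and -0.038 for UQCRH, and TPM without mitochondrial genes -0.0099 for PSMC3 and -0.0029 for UQCRH. Leaving out single libraries gave -0.027 to 0.078 for CANX, -0.021 to 0.086 for CDK1, -0.057 to 0.057 for PSMC3, -0.44 to 0.12 for TCF3 and -0.026 to 0.060 for UQCRH.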
